A study of Mus musculus with 4 samples.

Results

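Of 10 cytokine and cytokine receptor genes in cultured mouse lung endothelium, Tslp stood more than 1.5-fold higher where the glucocorticoid receptor was depleted. Il33 and Csf1 were lower there, Il33 past 1.5-fold only without dexamethasone and Csf1 by less than 1.5-fold. Il6 stood higher there only in the column with dexamethasone. The receptor genes, like Csf1, differed by less than 1.5-fold. The genes described are 10 of the 23997 in the deposited table, taken by symbol: the ligands Il6, Il33, Tslp, Csf1, Csf3 and Lif, and the receptor genes Il1r1, Il6st, Il6ra and Tnfrsf1a. All 10 were found. The cells were C57BL/6 lung endothelial cells kept in EBM-2 medium and 10% serum. They were given control siRNA, or siRNA that targets Nr3c1, the gene of the glucocorticoid receptor (GR), over 48 h, with or without the synthetic glucocorticoid dexamethasone (DEX) at 100 nM over 18 h. Total RNA was sequenced, and the values are FPKM, read fragments scaled to transcript length and library size. The 4 conditions are control siRNA, control siRNA + DEX, GR siRNA and GR siRNA + DEX. The labels do not say whether the cells were primary or a line or how many animals they came from.

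Endothelial cells make cytokines that act on leukocytes and their precursors, and carry receptors through which inflammatory cytokines act on the vessel wall. IL-6, LIF and oncostatin M signal through a shared receptor chain, gp130 (gene Il6st), which activates JAK kinases and STAT3, while IL-1 and TNF receptors lead to the transcription factor NF-kappaB. The glucocorticoid receptor is a ligand-activated transcription factor, best known in inflammation for restraining cytokine genes that NF-kappaB and AP-1 switch on. It is found in most cell types, endothelium included.

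The series describes triplicates, but the table has 1 column per condition and does not say whether a column is 1 library or a combination. No spread between replicates can be given, so no difference below has a test, and every value is the authors' single value for its condition. A pair of conditions was compared as the difference of log2(FPKM + 1) for genes that reached 1 FPKM in either column. Genes at least 1.5-fold apart on that scale were called higher or lower. Most low values of the table lie on steps worth 1 fragment each, from which the depth was estimated at 38500000 fragments for control siRNA, 55800000 fragments for control siRNA + DEX, 57700000 fragments for GR siRNA and 46700000 fragments for GR siRNA + DEX. These estimates give each FPKM ratio below a 95% interval that covers counting error only, and nothing of the spread between cultures. Nr3c1 itself had 14.4 FPKM in control cells and 14.3 FPKM after adding DEX; the corresponding GR siRNA values were 5.45 and 5.32 FPKM, so the target was lowered and not removed.

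The cells carried the defining genes of endothelium. All 18 endothelial markers were at least 1 FPKM in every column, with sums between 3657 and 4048 FPKM. The most abundant, the transcription factor gene Sox18, was 450 to 551 FPKM. The tight junction gene Cldn5 was 493 and 525 FPKM with control siRNA against 368 and 332 FPKM with GR siRNA, without and with DEX. Robo4 went the other way, with 22.5 and 22.5 against 30.3 and 28.0 FPKM. Of the 18 markers, 6 were higher and 12 lower with GR siRNA without DEX, and 8 were higher and 10 lower with DEX. Their median differences on the log2(FPKM + 1) scale were -0.05 and -0.03. Of 12 leukocyte markers found by symbol, Cd68 (161 to 218 FPKM) and Cd14 (1.57 to 1.68 FPKM) reached 1 FPKM, and Ptprc, Cd3e and Tyrobp were listed at 0 throughout. Of 11 lung epithelial markers, Krt18, Ager and Sftpb reached 1 FPKM, and the sum of all 11 lay between 7.70 and 8.62 FPKM. Fibroblast and mural markers are given beside Tslp below. In RNA from a whole culture, fewer cells of a type and less RNA per cell cannot be told apart.

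The receptor genes Tnfrsf1a and Il6st had the highest FPKM of the 10 genes, and the ligand genes Csf3 and Lif the lowest. Tnfrsf1a, which encodes TNF receptor 1, stood between 121 and 128 FPKM and lay above 96.9% of all genes in the table by its mean. Il6st followed at 27.8 to 31.7 FPKM, then Csf1 at 11.9 to 16.9 FPKM and Il6ra at 7.93 to 11.1 FPKM. Below them were Tslp at 3.74 to 10.2 FPKM, Il1r1 at 5.88 to 6.94 FPKM, Il6 at 1.95 to 3.68 FPKM and Il33 at 1.06 to 2.17 FPKM. Csf3, at 0.12 to 0.26 FPKM, and Lif, at 0.048 to 0.12 FPKM, stayed under 1 FPKM in every column, so 8 of the 10 genes entered the comparisons. Ranges over the 4 conditions overlapped for 3 neighbours in this order: Il6ra with Tslp, Tslp with Il1r1, and Il6 with Il33. Tslp changed its place with the siRNA: it ranked behind Il1r1 in both control columns, ahead of Il1r1 with GR siRNA, and ahead of Il6ra as well with GR siRNA + DEX.

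**Figure D1:**
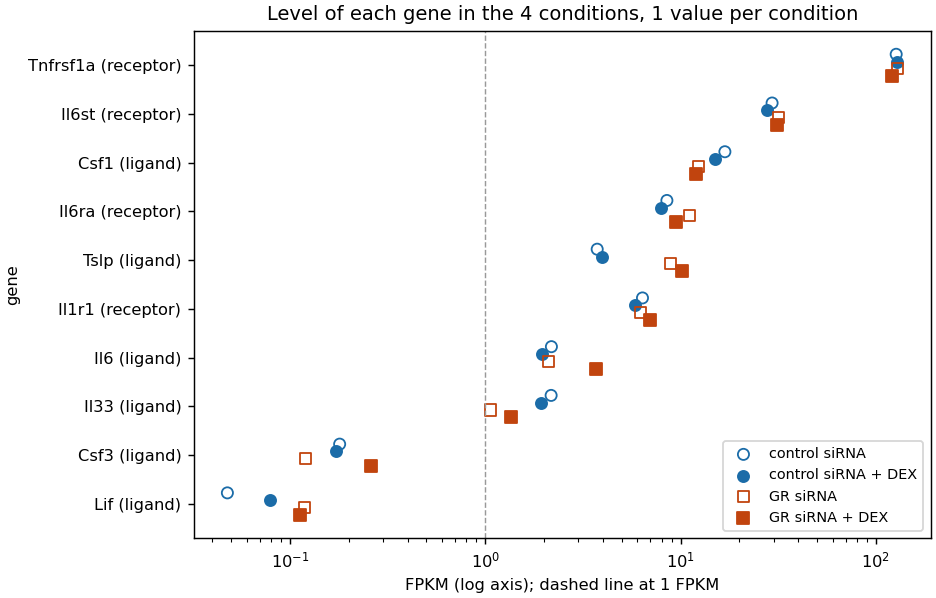
Deposited FPKM (log axis) of the 10 genes, ordered by mean, with 1 point per condition; circles stand for control siRNA and squares for GR siRNA, and symbols are open where DEX was absent. The Tslp squares (8.92 and 10.2 FPKM) lie right of its circles (3.74 and 3.95 FPKM), and the 4 symbols of Tnfrsf1a nearly coincide.

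The start regions of Il6, Csf1 and Il33 are shown because these ligand genes differ between the columns and their windows hold matches to at least 1 of the motifs searched. RefSeq promoters of the GRCm38.p6 build, 250 bases before to 50 after an annotated start, were given for 8 of the 10 genes, in 10 windows. Tslp and Csf3 had no window, so they were not searched for motifs. Capitals mark every match, on either strand, to GGNNTTTCC (NF-kappaB), TTGCNNAA (C/EBP), TGANTCA (AP-1), AGAACA (a single GR hexamer, not a full GR element) and TTCNNNGAA (STAT). They also mark the TATA box letters, TATAAA. Matches in these windows do not overlap each other. Each sequence runs 5′ to 3′ along the gene's strand.
Il6, chr5:30012864-30013163, plus strand: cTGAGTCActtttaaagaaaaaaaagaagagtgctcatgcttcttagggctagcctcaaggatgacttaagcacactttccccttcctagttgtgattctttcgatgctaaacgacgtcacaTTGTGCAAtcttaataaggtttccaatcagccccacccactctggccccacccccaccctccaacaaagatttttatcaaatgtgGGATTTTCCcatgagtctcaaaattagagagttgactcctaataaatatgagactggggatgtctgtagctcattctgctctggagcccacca
Csf1, chr3:107760420-107760719, minus strand: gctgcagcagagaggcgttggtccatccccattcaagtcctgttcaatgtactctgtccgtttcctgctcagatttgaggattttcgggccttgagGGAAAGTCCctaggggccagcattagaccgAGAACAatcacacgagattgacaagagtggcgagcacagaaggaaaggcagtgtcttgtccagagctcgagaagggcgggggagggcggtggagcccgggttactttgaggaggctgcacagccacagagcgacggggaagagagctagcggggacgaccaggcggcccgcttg
Il33, first start, chr19:29924863-29925162, plus strand: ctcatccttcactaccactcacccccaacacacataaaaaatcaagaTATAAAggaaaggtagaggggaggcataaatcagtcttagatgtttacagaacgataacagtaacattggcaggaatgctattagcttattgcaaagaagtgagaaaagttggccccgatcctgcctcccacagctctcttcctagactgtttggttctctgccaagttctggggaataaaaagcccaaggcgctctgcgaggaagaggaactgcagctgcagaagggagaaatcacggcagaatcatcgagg
Il33, second start, chr19:29945540-29945839, plus strand: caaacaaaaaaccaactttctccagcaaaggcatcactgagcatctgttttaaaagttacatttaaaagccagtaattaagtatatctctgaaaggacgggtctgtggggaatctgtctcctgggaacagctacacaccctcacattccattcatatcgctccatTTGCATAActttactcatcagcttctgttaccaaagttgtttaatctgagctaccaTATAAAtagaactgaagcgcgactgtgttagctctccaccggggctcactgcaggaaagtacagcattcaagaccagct

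The NF-kappaB letters occurred in the Il6 window, at positions -43 to -35 from the start (GGATTTTCC), and in the Csf1 window, at -154 to -146 (GGAAAGTCC, on the opposite strand). They occurred in 5.82% of all 32851 windows of this length. The Il6 window also held a C/EBP match at -128 to -121 and an AP-1 match at -249 to -243. C/EBP letters were in 10.8% and AP-1 letters in 7.81% of all windows. A single GR hexamer lay at -124 to -119 in Csf1, and 1 was found at the second start of Il1r1, whose first start had a C/EBP match. The GR hexamer was in 19.0% of all windows. The second start of Il33 carried a C/EBP match and a TATA box at -29 to -24, and at its first start the only match was a TATA box at -203 to -198, letters found in 13.6% of windows. The AP-1 letters were also in the Lif window and the STAT letters, present in 8.30% of windows, in that of Tnfrsf1a. The Il6st and Il6ra windows held none of the 6. The table does not say which start the cells used, and a match describes letters and not binding.

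The siRNA comparison asks how these genes stand when the mRNA of the receptor is reduced. Without DEX, Tslp was the 1 cytokine called higher and Il33 the 1 called lower of 8 tested, while 2.36% of 11325 genes were called higher and 2.54% lower (267 and 288 genes, or 323 and 231 after rescaling the columns to a common upper quartile). With DEX in both arms, Tslp and Il6 were called higher and none lower of 8 tested, while 2.36% of 11344 genes were called higher and 2.62% lower. The median difference of the 8 genes was -0.0041 without DEX and 0.18 with DEX, against -0.014 and -0.0085 over all genes tested. Both comparisons rest on separate columns. In them 5 of the 8 genes had the same sign, against 78.5% of 11224 genes tested in both, and Tslp was called higher in both, as were 1.40% of all genes. Some genes below had both GR siRNA columns on the same side of both control columns. How many of all genes did so was not computed.

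Tslp encodes thymic stromal lymphopoietin, a cytokine best known from epithelial cells at barriers, which acts on dendritic cells and lymphoid cells. It is a gene on chromosome 18 in mm10 (32815383 to 32819797, plus strand). Tslp was 3.74 FPKM with control siRNA, 3.95 FPKM with control siRNA + DEX, 8.92 FPKM with GR siRNA, and 10.2 FPKM where GR siRNA and DEX were combined. Both GR siRNA columns were above both control columns. The FPKM ratio of GR siRNA to control siRNA was 2.38 without DEX (counting interval 1.96 to 2.92) and 2.58 with DEX (2.18 to 3.07). On the log2(FPKM + 1) scale the differences were 1.06 and 1.18, and Tslp ranked 78 from the top of 11325 genes without DEX and 46 of 11344 with DEX. Its estimated fragments ran from 130 to 466, so the gap between the siRNA arms was larger than counting error.

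The summed level of fibroblast and mural cell markers was higher in the same columns as Tslp, though not every marker was. The 13 markers summed to 17.0 and 15.4 FPKM in the control columns, without and with DEX, and to 22.5 and 20.1 FPKM in the GR siRNA columns. Of these, 3 were at least 1 FPKM in each control column and 4 in each GR siRNA column, and Rgs5 was listed at 0 throughout. Dcn, which encodes the matrix proteoglycan decorin, was 0.39 and 0.30 FPKM with control siRNA and 1.99 and 2.73 FPKM with GR siRNA, without and with DEX. Acta2, encoding smooth muscle actin, was 5.65 and 5.5996 against 8.82 and 7.71 FPKM. Tagln, a smooth muscle gene and the most abundant of the list, went the other way, with 8.76 and 7.48 against 7.87 and 7.04 FPKM. The part of such cells in the level of Tslp was not tested.

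Il33 was lower with GR siRNA. It encodes IL-33, a nuclear cytokine of the IL-1 family that is released when barrier or endothelial cells are damaged, and it lies on chromosome 19 (29925114 to 29960718, plus strand). Il33 was 2.17 FPKM with control siRNA, 1.92 FPKM with control siRNA + DEX, 1.06 FPKM with GR siRNA, and 1.36 FPKM where GR siRNA and DEX were combined. Both GR siRNA columns were below both control columns. The ratio of GR siRNA to control siRNA was 0.490 without DEX (counting interval 0.390 to 0.609) and 0.705 with DEX (0.572 to 0.869). Only the first passed 1.5-fold on the log2(FPKM + 1) scale, at -0.62 against -0.31 with DEX, and after upper quartile rescaling it was -0.57 and no longer called. The difference between these 2 values was 0.31, and with single columns it was not tested.

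Csf1, the colony-stimulating factor on which macrophages depend, was also lower with GR siRNA, by less than 1.5-fold. The gene lies on chromosome 3 (107741048 to 107760469, minus strand). It was 16.9 FPKM with control siRNA, 14.9 FPKM with control siRNA + DEX, 12.4 FPKM with GR siRNA, and 11.9 FPKM where GR siRNA and DEX were combined. The siRNA arms did not overlap. The ratio was 0.734 without DEX (0.679 to 0.794) and 0.799 with DEX (0.738 to 0.864), on 1046 to 1565 estimated fragments. Differences of this size were not rare: 9.77% of genes without DEX and 18.6% with DEX differed by more on the log2(FPKM + 1) scale.

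Il6 stood apart in 1 of the 4 columns. It encodes IL-6, which drives acute-phase and lymphocyte responses, on chromosome 5 (30013114 to 30019981, plus strand). It was 2.18 FPKM with control siRNA, 1.95 FPKM with control siRNA + DEX, 2.12 FPKM with GR siRNA, and 3.68 FPKM where GR siRNA and DEX were combined. The first 3 columns were close together, and GR siRNA + DEX was above all of them. The ratio of GR siRNA to control siRNA was 0.970 without DEX (0.631 to 1.54) and 1.88 with DEX (1.29 to 2.77), with differences of -0.03 and 0.66 on the log2(FPKM + 1) scale. The first of these was 0.02 after upper quartile rescaling. The estimated fragments were few, 36 to 74 on the shortest annotated coding transcript, and the result rests on the GR siRNA + DEX column alone.

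Csf3 and Lif were near the limit of what the depth can show. Csf3 encodes G-CSF, which drives neutrophil production, and was 0.18 FPKM with control siRNA, 0.17 FPKM with control siRNA + DEX, 0.12 FPKM with GR siRNA, and 0.26 FPKM where GR siRNA and DEX were combined, on about 8 to 14 fragments. Its ratios of 0.671 without DEX (0.218 to 2.04) and 1.51 with DEX (0.642 to 3.70) could not be told from 1 at this depth. Lif encodes leukemia inhibitory factor, a ligand of gp130, and was 0.048, 0.079, 0.12 and 0.11 FPKM in the same order of columns, on about 7 to 25 fragments. Its ratio was 2.49 without DEX (1.001 to 6.52) and 1.42 with DEX (0.691 to 2.95). On these few fragments both GR siRNA columns were above both control columns for Lif, and the columns of Csf3 overlapped.

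**Figure D2:**
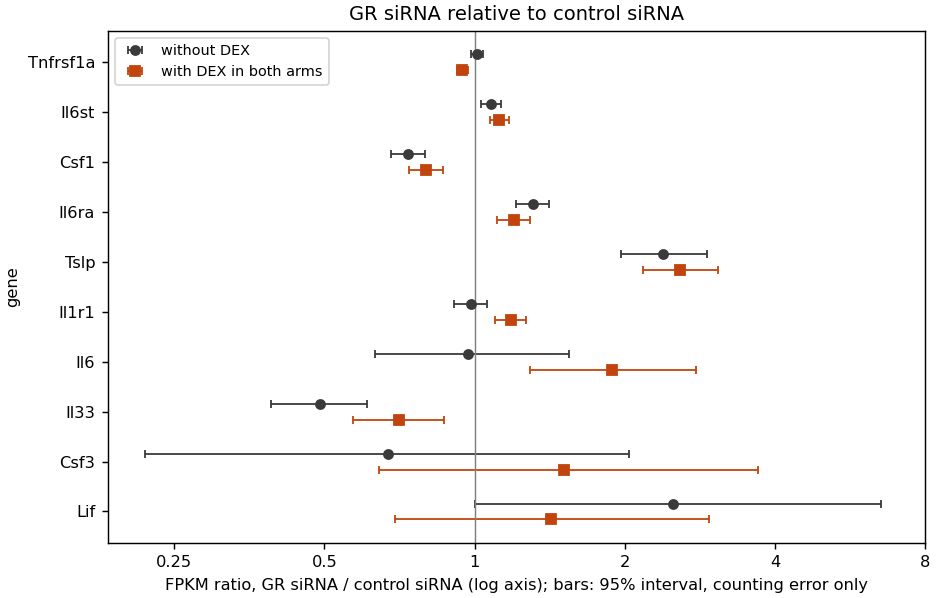
FPKM ratio of GR siRNA to control siRNA (log axis) for the 10 genes, with circles for the comparison without DEX, squares for that with DEX in both arms, and bars for the 95% interval of counting error only. Tslp lies at 2.38 and 2.58, Il33 at 0.490 and 0.705, and the bars of Csf3 and Lif are the widest.

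None of the receptor genes was called in either siRNA comparison. Il6ra, the IL-6 binding chain, was 8.51 FPKM with control siRNA, 7.93 FPKM with control siRNA + DEX, 11.1 FPKM with GR siRNA, and 9.49 FPKM where GR siRNA and DEX were combined. Its siRNA arms did not overlap, with ratios of 1.31 without DEX (1.21 to 1.41) and 1.20 with DEX (1.11 to 1.29). Il6st, which encodes gp130, was 29.4, 27.8, 31.7 and 31.1 FPKM in the same order. The arms of Il6st were separate too, but the ratios were 1.08 (1.03 to 1.13) and 1.12 (1.07 to 1.17), and 59.0% and 42.4% of all genes differed by more.

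Il1r1, the signalling receptor for IL-1, was 6.38 FPKM with control siRNA, 5.88 FPKM with control siRNA + DEX, 6.26 FPKM with GR siRNA, and 6.94 FPKM where GR siRNA and DEX were combined. The ratio was 0.981 without DEX (0.909 to 1.06) and 1.18 with DEX (1.10 to 1.27), and without DEX the columns lay within counting error. Tnfrsf1a was 127, 128, 128 and 121 FPKM, with ratios of 1.01 (0.985 to 1.04) and 0.944 (0.920 to 0.968). From 9460 to 14345 estimated fragments make the intervals of Tnfrsf1a narrow, so an interval that leaves out 1 here does not show a difference between cultures. In mm10 Il6ra lies on chromosome 3 (89864059 to 89913196), Il6st on chromosome 13 (112464070 to 112510086), Il1r1 on chromosome 1 (40225080 to 40317257) and Tnfrsf1a on chromosome 6 (125349362 to 125362484).

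**Figure D3:**
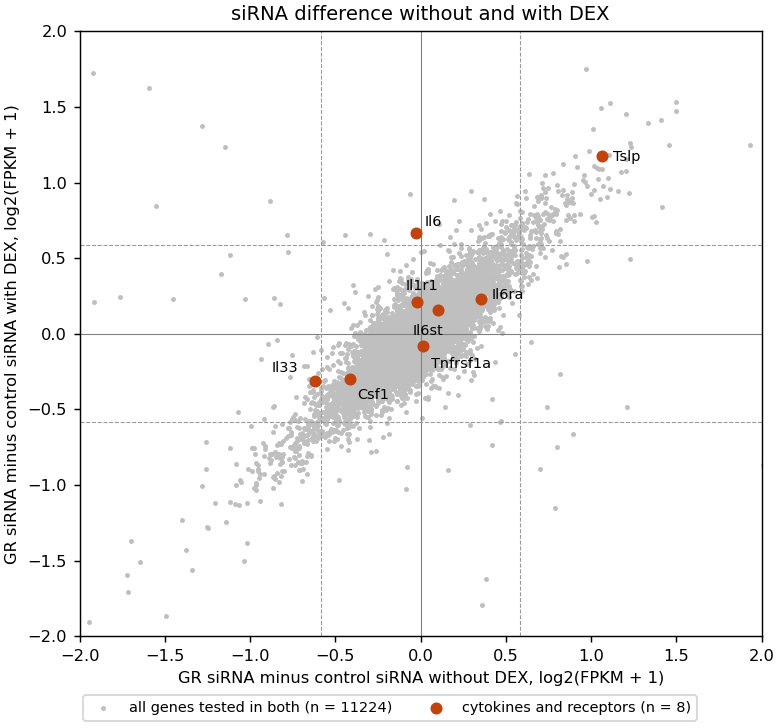
Difference of log2(FPKM + 1) between GR siRNA and control siRNA without DEX (x axis) and with DEX (y axis), for 11224 genes tested in both (grey) and for the 8 cytokine and receptor genes among them (red); dashed lines mark 1.5-fold, and 76 genes lie outside the axes. Tslp is past the lines on both axes (1.06 and 1.18), Il6 on the y axis only and Il33 on the x axis only.

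The comparison of DEX with no DEX asks what the hormone adds in each siRNA arm. In control siRNA cells none of the 8 genes was called, and their differences ran from -0.16 for Csf1 to 0.06 for Tslp, while 0.686% of 11227 genes were called higher and 0.392% lower. The median was -0.097 for the 8 genes and -0.0051 for all. Upper quartile rescaling raised these differences: Csf1 became -0.07, Il6st 0.01 (from -0.08), Tslp 0.14 and Tnfrsf1a 0.11 (from 0.02). The median became -0.013 for the 8 genes and 0.083 for all, so that of the 8 stayed below that of all genes. Median-of-ratios rescaling left the median of all genes at -0.00047. Csf1, for example, was 16.9 FPKM without and 14.9 FPKM with DEX, a ratio of 0.886 (0.822 to 0.956). Tsc22d3, which encodes the glucocorticoid-induced protein GILZ, was 50.7 FPKM without and 57.9 FPKM with DEX in these cells. That is a difference of 0.19, and Dusp1, a MAP kinase phosphatase gene, differed by 0.02, so neither was called.

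In GR siRNA cells Il6 was the 1 gene called of 8, and it was higher with DEX, while 0.531% of 11310 genes were called higher and 0.645% lower. Its ratio was 1.74 (1.20 to 2.504) and its log2(FPKM + 1) difference 0.59, just past 1.5-fold. Il33 was 1.06 FPKM without and 1.36 FPKM with DEX in these cells, a ratio of 1.27 (1.01 to 1.62), and Il6ra was 11.1 and 9.49 FPKM, a ratio of 0.853 (0.796 to 0.914). The DEX difference in GR siRNA cells minus that in control siRNA cells was 0.69 for Il6, past 1.5-fold and the 1 called of 8, while 0.751% of 11445 genes were called higher on this measure and 0.961% lower. For Tslp it was 0.11 and for Csf1 0.12. The DEX comparisons share columns with the siRNA comparisons, so the Il6 values of both come from the same column.

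**Figure D4:**
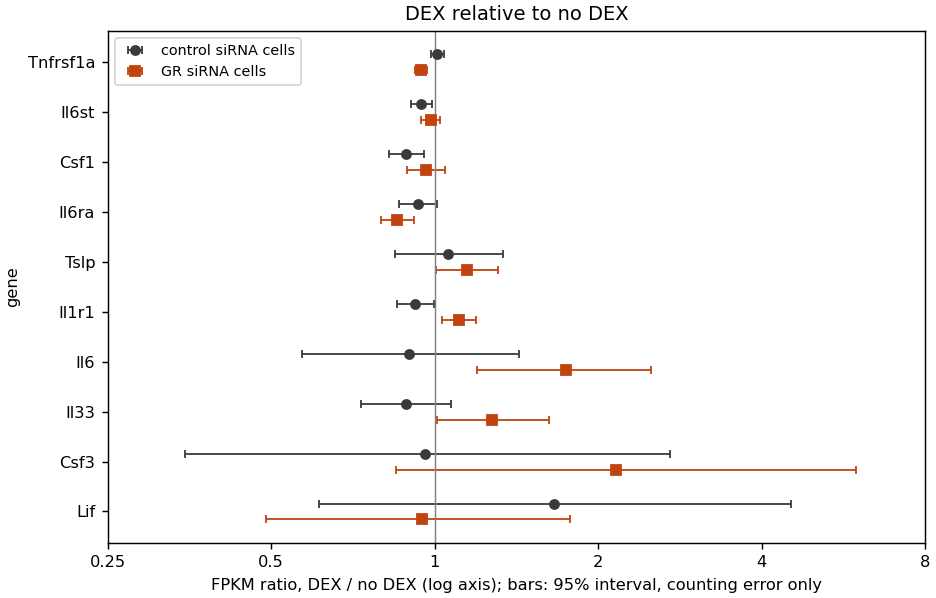
FPKM ratio of DEX to no DEX (log axis) for the 10 genes, with circles for control siRNA cells, squares for GR siRNA cells, and bars for the 95% interval of counting error only. Most genes lie near 1 in both arms, and Il6 stands at 0.896 in control siRNA cells and 1.74 in GR siRNA cells.

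Partners of these cytokines were unevenly present. TSLP acts through a receptor of Crlf2 and Il7r: Crlf2 was 17.3 and 17.2 FPKM with control siRNA and 19.3 and 18.3 FPKM with GR siRNA, without and with DEX, and Il7r was at most 0.012 FPKM. IL-33 acts through Il1rl1 and Il1rap: Il1rl1 was 0.19, 0.16, 0.058 and 0.044 FPKM with control siRNA, control siRNA + DEX, GR siRNA and GR siRNA + DEX, and Il1rap was between 8.98 and 10.3 FPKM. The CSF1 receptor Csf1r was at most 0.37 FPKM and the G-CSF receptor Csf3r at most 0.076 FPKM. Lifr, which binds LIF together with gp130, was 1.61, 2.03, 1.76 and 1.39 FPKM in that order, and the oncostatin M receptor Osmr was at most 0.21 FPKM. Tnfrsf1b, the second TNF receptor, was 2.09 and 2.23 FPKM with control siRNA and 3.13 FPKM in both GR siRNA columns. The ligands for Il1r1 and Tnfrsf1a, Il1a, Il1b and Tnf, were at most 0.24 FPKM, as was the antagonist Il1rn. The decoy receptor Il1r2 was listed at 0. The second ligand of Csf1r, Il34, was at most 0.28 FPKM, and Osm at most 0.025 FPKM. Of the 16 partners 4 reached 1 FPKM, and none of them was called in either siRNA comparison, where their medians were 0.12 without and 0.03 with DEX.

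Among other cytokines and receptors made by the cells, Tgfb2 was higher and Kit lower with GR siRNA in both states. The counts of this and the following lists stand against 2.36% of all genes called higher in each state, and 2.54% called lower without and 2.62% with DEX. Of 24 other cytokines, 7 were tested without DEX and 8 with DEX, and Tgfb2, a TGF-beta ligand, was the 1 called in each: 1.32 FPKM in both control columns against 2.77 and 2.79 FPKM with GR siRNA. Mif, the most abundant, was 365 and 396 against 520 and 505 FPKM, and Kitl, the stem cell factor of the KIT receptor, was 237 and 245 against 189 and 193 FPKM. Of 19 other cytokine receptors tested, Kit and Fas were called lower without DEX and Kit with DEX, and none higher. Kit was 12.1 and 10.7 FPKM with control siRNA against 6.16 and 5.07 FPKM with GR siRNA, and the death receptor Fas was 10.3 and 11.0 against 5.80 and 7.35 FPKM. Tnfrsf12a, the receptor of TWEAK and the most abundant of these, was 146 and 147 against 133 and 139 FPKM. Il2rg, the receptor chain shared by IL-2 family cytokines, was 80.1 and 75.2 against 95.04 and 103 FPKM.

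The genes that carry the signal inward were described from separate lists for gp130 and for IL-1 and TNF receptors, whose counts lie near those shares. Of 23 gp130 and JAK-STAT genes tested, none was called in either state, and the medians were -0.04 and -0.06. Without DEX 8 of them were higher and 15 lower with GR siRNA, and with DEX 10 were higher and 13 lower. The kinase gene Jak2 was 11.2 and 11.1 FPKM with control siRNA against 8.60 and 8.92 FPKM with GR siRNA. Stat2 and Stat5a went the other way, with 32.1 and 31.6 against 39.1 and 39.5 FPKM, and 3.07 and 2.96 against 3.87 and 3.97 FPKM. Stat3 was 45.6 and 46.8 against 39.7 and 37.8 FPKM (chosen after its values were seen). Junb, an AP-1 subunit gene and the most abundant of the list, was 56.5 and 53.5 against 44.4 and 46.8 FPKM. Socs3, the feedback inhibitor of gp130, was between 3.83 and 4.61 FPKM (chosen after its values were seen). Of 26 genes of IL-1 and TNF receptor signalling, Chuk, which encodes IKK-alpha, was called lower in both states, with 35.1 and 36.2 against 21.9 and 21.9 FPKM. Traf1, an adaptor of TNF receptors, was 14.04 and 13.5 against 20.9 and 22.2 FPKM and was called higher with DEX. Nfkbia, the inhibitor of NF-kappaB, was 99.4 and 103 against 75.7 and 75.5 FPKM, and Sigirr, which restrains IL-1 family receptors, 28.3 and 28.5 against 20.4 and 20.3 FPKM. The medians of this list were -0.09 and 0.0034.

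In the lists for shedding and for cytokine mRNA decay and feedback, Adam8 was higher and the feedback genes Cebpb and Tsc22d3 lower with GR siRNA in both states. Of 8 shedding genes, Adam8, a metalloprotease, was called higher in both states, with 4.85 and 4.92 FPKM against 8.35 and 8.43 FPKM, and none was called lower. Timp3, a metalloprotease inhibitor and the most abundant of these, was 225 and 229 against 268 and 287 FPKM. Adam17, the protease that releases TNF and the IL-6 receptor from cells, was between 21.4 and 26.9 FPKM (chosen after its values were seen). Of 13 genes of mRNA decay and feedback, Cebpb and Tsc22d3 were called lower without DEX and Rc3h2 joined them with DEX, which is 2 and 3 of 13 against the 2.54% and 2.62% of all genes. The list was chosen with earlier results of these data known and includes the glucocorticoid-induced gene Tsc22d3. These counts are therefore no test of the list. Dusp1, a MAP kinase phosphatase and the most abundant, was 97.2 and 98.3 against 85.6 and 86.6 FPKM. The mRNA decay genes Zfp36, Rc3h1 and Zc3h12a were not called in either state. Rc3h2, which encodes the mRNA decay factor roquin-2, was 10.5 and 10.7 against 7.53 and 6.58 FPKM, and Cebpd, a factor of the C/EBP family, 7.02 and 7.60 against 5.38 and 5.16 FPKM. On the log2(FPKM + 1) scale Cebpb, another C/EBP factor, differed by -1.02 without and -1.38 with DEX, and Tsc22d3, which encodes the glucocorticoid-induced protein GILZ, by -1.02 and -1.12.

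**Figure D5:**
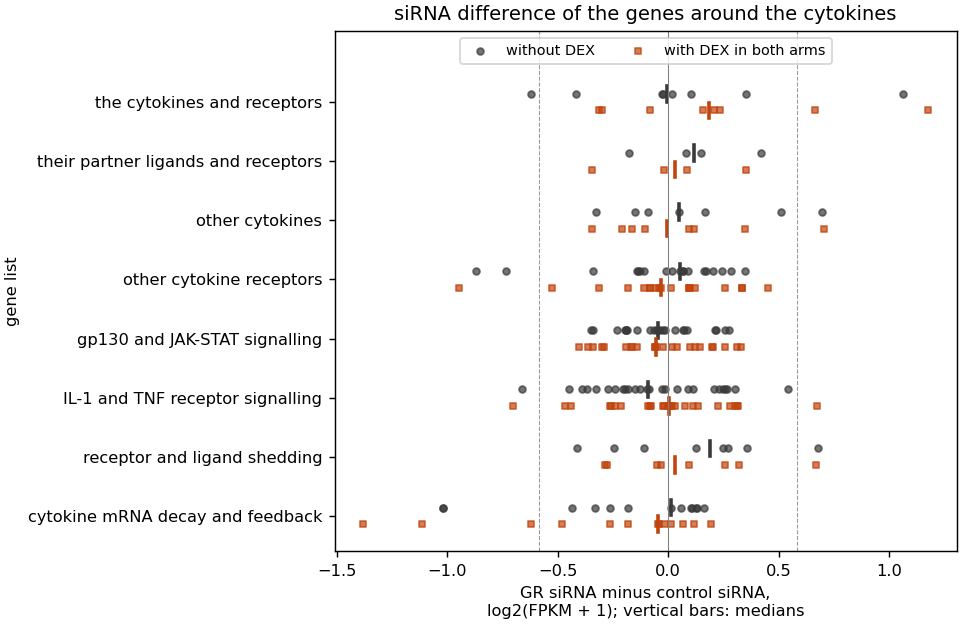
Difference of log2(FPKM + 1) between GR siRNA and control siRNA for each tested gene of the cytokine set and of 7 lists around it, with circles without DEX, squares with DEX, thick bars for medians and dashed lines at 1.5-fold. Medians lie between -0.09 and 0.19, and single genes such as Tslp (1.06 and 1.18), Kit (-0.87 and -0.95) and Cebpb (-1.02 and -1.38) stand beyond the lines.

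Several genes outside the cytokines shared the patterns of Tslp and Csf1 over the 4 columns. Likeness was the Euclidean distance between centred log2(FPKM + 1) values, over 8639 genes that reached 5 FPKM in at least 1 column, with predicted genes, clone names, small RNAs and entries of several symbols left out. Closest to Tslp were Ephx1, an epoxide hydrolase (distance 0.061), the lymphangiogenic factor Vegfc (0.064) and the matrix protein gene Thbs2 (0.083). Ephx1 was 8.48 and 9.06 FPKM with control siRNA and 18.4 and 20.5 FPKM with GR siRNA, and Thbs2 was 47.3 and 49.3 against 100.2 and 106 FPKM. Closest to Csf1 were Efemp2, an elastic fibre gene (0.014), the kinetochore motor gene Cenpe (0.014) and Pdzd8 (0.033), with Cenpe at 14.9 and 13.2 against 11.1 and 10.6 FPKM. Likeness over 4 columns is a description of these columns only.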

How the data were processed

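RNA was measured by sequencing in lung endothelial cells under 4 conditions. The authors' deposited table gives FPKM per gene, made with TopHat2 and Cuffdiff on mm10 per the submitters' processing notes. Neither tool versions nor annotation, strand setting or replicate handling is given in the sources used here. FPKM values depend on the transcript length assigned and keep no counts. Differences of log2(FPKM + 1) were computed across all genes of at least 1 FPKM in 1 column compared (python 3.11.15, numpy 2.4.6, pandas 2.3.3), and genes at least 1.5-fold apart were called, with no test. Absolute depth came from 2848 genes with 1 GENCODE M21 transcript of 1000 to 6000 nt: FPKM under 0.1, multiplied by length less 220 nt, lay within 10% of a step from a whole multiple of 1 fragment's worth for 76.3% to 82.7% of low values per column. Fragments behind each gene used its shortest CCDS transcript, and intervals are exact binomial at 95% (scipy 1.17.1). Up to 0.467% of a cytokine or receptor gene's 31-mers occur in another gene. The steps were also run on simulated data with 1 library per column, which does not cover columns that combine libraries. The genes and the 11 lists, with 193 symbols of which 1 was not found, were chosen with earlier results of these data known. Named genes were drawn from the 10, Nr3c1, all partners, cell markers listed at 0, up to 4 genes per list with the largest mean siRNA difference, each list's most abundant gene and, for the 2 with the largest range among those of at least 5 FPKM, the 3 genes of most similar pattern. Alternatives were other pseudocounts, filters, scalings and a 2-fold threshold, and, chosen after seeing the data, no pseudocount.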

Additional observations from a re-analysis of the deposited data

Results flagged for a closer look

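The DEX differences of Il6 had opposite signs in the siRNA arms, but only that in GR siRNA cells lay outside counting error. Opposite signs were not particular to Il6: over all genes tested in both arms they were about as common as equal signs. Il33, Il1r1 and Tnfrsf1a had them too, and for Il1r1 both counting intervals left out 1. Il6 stood out by the size of the gap, as the 1 called of the 8 genes. The DEX difference of Il6 on the log2(FPKM + 1) scale was -0.11 in control siRNA cells and 0.59 in GR siRNA cells, 0.69 apart. In control siRNA cells the FPKM ratio was 0.896, with a counting interval of 0.571 to 1.43, and the difference was -0.04 after upper quartile rescaling, so a decrease is not shown there. With 1 column per condition the difference was not tested. The Il6 difference rests on the GR siRNA + DEX column, where Il6 was 3.68 FPKM on an estimated 74 fragments. That estimate uses the shortest annotated coding transcript, of 651 nt, and the longest, of 1141 nt, would give more.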

How the results depend on the processing

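No paired analysis was possible because each condition has 1 column, and for the same reason no replicate could be left out. At a 2-fold threshold 170 genes were called between GR siRNA and control siRNA without DEX and 153 with DEX, against 555 and 565 at 1.5-fold. Tslp was the 1 cytokine gene still called in both, while Il33 and Il6 were not. The other 33 counts of genes stayed within 1.5 times of the reported ones. Upper quartile rescaling moved the split without DEX from 267 higher and 288 lower to 323 higher and 231 lower. The median siRNA difference of all genes without DEX was -0.014 as deposited and 0.054 after that rescaling. After median-of-ratios rescaling it was 0.0062, so the shift depends on the scaling chosen. Over the pseudocounts, none included, and the scalings, the siRNA difference of Tslp ranged from 1.06 to 1.25 without DEX and from 1.17 to 1.37 with DEX, that of Il6 with DEX from 0.66 to 0.91, and that of Il33 without DEX from -1.03 to -0.57. At a minimum of 5 FPKM, Il6 and Il33 were too low to be tested. Depth limits Csf3, Lif and Il6 most.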
